A study of Homo sapiens with 5 samples.

Results

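The origins described here are 355 replication origins whose centre lay more than 20 kb and at most 50 kb from the nearest listed transcription start site (TSS), of 2040 origins listed with a distance to a gene. That list is itself a selection by the authors, and 4784 origins had deposited density. Its name refers to an empty 5 kb upstream of the TSS, and the procedure is not given in the sources used here. Whether that selection shapes the values below, or the shares over all listed origins, was not tested. From the list, the 355 origins were chosen by their distance alone. In 243 of them the origin lay upstream of the listed gene start, and in the other 112 downstream of it, inside the gene or past its end. The origins had been mapped by OK-seq, which sequences Okazaki fragments and places origins where the bias between strands reverses. RNA polymerase II (RNAPII) was measured by ChIP-seq with antibodies to RPB1, the largest of its subunits. The cells were untreated RPE1, an hTERT-immortalised line from human retinal pigment epithelium. All 5 samples shared an inducible Cas9 and the knockout of both p53 and the puromycin resistance gene (p53/puro-dKO), so WT here means WT for CFAP20 and CCNC. They were CFAP20/CCNC-dKO (1 sample), CFAP20-KO (1 sample) and WT (3 samples), and RNAPII around origins was measured in the 3 WT samples. The labels do not say that WT replicates came from separate cultures, so their spread may be technical.

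An origin is a place where bidirectional DNA synthesis begins. Initiation in human cells is spread over zones that often lie between transcribed genes, and forks leaving such a zone then meet RNAPII on the gene bodies beside it. A fork that starts upstream of a gene enters it in the direction of transcription, whereas a fork that starts past the gene's end meets transcription head on. RNAPII is densest just downstream of active promoters, where it pauses before elongation. CFAP20, first known as a cilium and flagellum protein, was studied in this series for its nuclear role where transcription meets replication, and CCNC encodes cyclin C of the Mediator kinase module.

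Sequences around 2 of the origins show what the densities below were read from. JUN was among the nearest genes with the highest RNAPII at their start relative to the opposite side of the origin, and ITGB6 had the highest RNAPII at the centre of an upstream origin. Capitals mark CG dinucleotides. The origin centres are 300 bases of the hg38 plus strand. The promoter is from RefSeq (GRCh38.p14) and runs from before the gene start to just past it, in the direction of the gene on the minus strand.
JUN origin centre, chr1:58761851-58762150: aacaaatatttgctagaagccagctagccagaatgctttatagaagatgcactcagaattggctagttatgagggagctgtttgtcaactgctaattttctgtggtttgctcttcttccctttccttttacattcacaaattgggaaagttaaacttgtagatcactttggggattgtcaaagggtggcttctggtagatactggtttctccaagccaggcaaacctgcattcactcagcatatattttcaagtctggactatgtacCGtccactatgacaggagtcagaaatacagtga
JUN promoter, chr1:58783998-58784297: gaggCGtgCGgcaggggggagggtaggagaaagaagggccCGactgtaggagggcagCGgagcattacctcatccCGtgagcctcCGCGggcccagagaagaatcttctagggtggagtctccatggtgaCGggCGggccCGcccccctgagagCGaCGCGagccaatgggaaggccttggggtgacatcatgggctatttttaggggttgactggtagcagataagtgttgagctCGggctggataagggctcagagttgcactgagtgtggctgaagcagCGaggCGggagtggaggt
ITGB6 origin centre, chr2:160226851-160227150: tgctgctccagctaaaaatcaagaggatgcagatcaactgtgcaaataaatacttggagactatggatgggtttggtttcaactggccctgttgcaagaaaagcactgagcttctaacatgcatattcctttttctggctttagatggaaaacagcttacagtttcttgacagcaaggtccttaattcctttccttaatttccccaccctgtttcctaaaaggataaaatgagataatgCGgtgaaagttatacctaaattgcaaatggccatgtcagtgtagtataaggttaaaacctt
The JUN origin centre held 1 CG dinucleotide and 41% G and C, against 16 and 62% at its promoter 22.0 kb away. The ITGB6 origin centre held 1 CG dinucleotide and 39% G and C.

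CG dinucleotides were also fewer at the origin centre in the medians over origins. The median number of CG dinucleotides in 300 bases was 2 at upstream origin centres, against 27 in the 179 of 243 nearest promoters found in the RefSeq table. It was 2 at downstream origin centres, against 16 in the 79 of 112 nearest promoters found there. All 35116 RefSeq promoters in the table had a median of 14. In 10 kb around the centre, the median share of G and C was 42.0% at upstream origins, 41.2% at downstream origins, 42.1% at origins 10 to 20 kb upstream of a gene and 38.8% at origins over 50 kb from a gene. It was above the share in the flanks of the same origin at 155 of 243 upstream and 68 of 112 downstream origins, or 63.8% and 60.7%, against 61.8% of all listed origins. A G-quadruplex motif, with 4 runs of at least 3 G separated by loops of 1 to 7 bases, on either strand, lay in the central 300 bases of 15 upstream origins (6.17%), 3 downstream origins (2.68%) and 3.24% of all listed origins. A run of 8 or more A, or of 8 or more T, lay there in 19.8% of upstream, 11.6% of downstream and 20.6% of all listed origins. These are descriptions of the sequence, with no test.

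Upstream origins lay at a median of 26412 bp from the gene start (20055 to 48741 bp), and 157 of the 243 lay within 30 kb. By the annotation, 23 of the upstream origins lay inside their nearest gene. Downstream origins lay at a median of 29686.5 bp (20080 to 49871 bp), and 28 of the 112 were inside the annotated gene, 74 were past its end and the rest had a gene name that could not be matched. Just inside the limits stood the origins nearest SECISBP2L at 20055 bp and LINC02093 at 48741 bp upstream, and LINC00578 at 20080 bp and PNMA2 at 49871 bp downstream. Just outside stood INPP4B at 19966 bp and LURAP1L-AS1 at 50612 bp upstream, and MGAT4EP at 19744 bp and LOC101928370 at 50027 bp downstream. By GENCODE 44, 197 of the upstream origins had a protein-coding nearest gene and 21 a long noncoding RNA (lncRNA), against 66 and 28 of the downstream origins. The centre was intergenic at 187 upstream and 69 downstream origins (77.0% and 61.6%), against 70% of all listed origins. The distance is to the TSS in the deposited list, and an annotated coding start lay within 20 kb of 25 upstream and 30 downstream origins. On the side away from the gene, the nearest coding start was a median of 82266 bp from upstream origins and 80407.5 bp from downstream origins.

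The deposited values were coverage in 200-bp bins over 100 kb on either side of each origin, with bins running along transcription of the nearest gene. The median density was 0.933, 0.604 and 0.603 in WT replicates 1, 2 and 3. Every bin was a whole multiple of 1 step of the library within 0.02 steps, and the median bin held 21, 7 and 3 steps. Replicate 3 was therefore the coarsest, with 16.8% of the bins of these 355 origins at 0, against 4.49% in replicate 2 and 1.88% in replicate 1. Bins at 0 in all 3 libraries made up over 5% of the window at 16 upstream and 8 downstream origins (6.58% and 7.14%), against 3.63% of all listed origins. Ratios were therefore taken within a library, and the 3 ratios were set against 0 by an exact two-sided sign-flip permutation test over libraries. With 3 libraries its smallest p is 0.25, which was the value for every ratio below except where another is given. After Benjamini-Hochberg adjustment over the 30 ratios tested this was 0.268, so no ratio could pass 0.05 and sizes are set against the SD over libraries. A ChIP signal is an average over the cells, so fewer cells with RNAPII at a place and less RNAPII per cell cannot be told apart.

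RNAPII around upstream origins was highest where the gene starts lay, and at the centre it was below the mean of the flanks. Within 5 kb of the centre, mean density was 0.904, 0.588 and 0.652 in replicates 1, 2 and 3, against 0.990, 0.612 and 0.712 in the flanks at 75 to 100 kb. All 3 libraries were lower at the centre, by a mean log2 ratio of -0.10 ± 0.04 (SD, n = 3). The flanks were unequal, with 1.04, 0.645 and 0.764 on the gene side, against 0.939, 0.579 and 0.660 on the other side. The centre was thus below the gene-side flank in all 3 libraries, by a mean log2 ratio of -0.19 ± 0.05, and level with the other flank within the spread, at -0.02 ± 0.04. The centre was above the flank at 70, 100 and 88 of the 243 origins in the 3 libraries. In 5-kb steps, density relative to the flanks was lowest at 10 to 15 kb on the gene side, at 0.893 ± 0.035, and highest at 20 to 25 kb, at 1.28 ± 0.09. Beyond that peak it was 1.26 ± 0.12 at 30 to 35 kb and 1.10 ± 0.05 at 45 to 50 kb. On the other side of the centre the highest 5-kb step within 45 kb was at 1.02.

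Around downstream origins density also peaked where the gene starts lay. Mean density within 5 kb of the centre was 0.896, 0.579 and 0.661 in the 3 libraries, against 0.939, 0.588 and 0.673 in the flanks. The mean log2 ratio was -0.04 ± 0.02 (SD, n = 3), with all 3 libraries below 0. This small deficit depended on the setting. It was -0.02 ± 0.04 with a centre of 2.5 kb on either side, and -0.02 ± 0.04 without origins that had another listed origin within 100 kb, each with an exact permutation p of 0.75. With listed starts within 1 kb of an annotated start it was -0.02 ± 0.03, with an exact permutation p of 0.5. Density relative to the flanks peaked at 1.34 ± 0.11 between 25 and 20 kb before the centre, where starts of the nearest genes lay. Past the centre it lay between 0.910 and 0.969 in each 5-kb step up to 50 kb. Downstream minus upstream origins, the log2 ratio of centre to flank differed by 0.07 ± 0.03 (SD, n = 3), with the same sign in all 3 libraries.

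**Figure D1:**
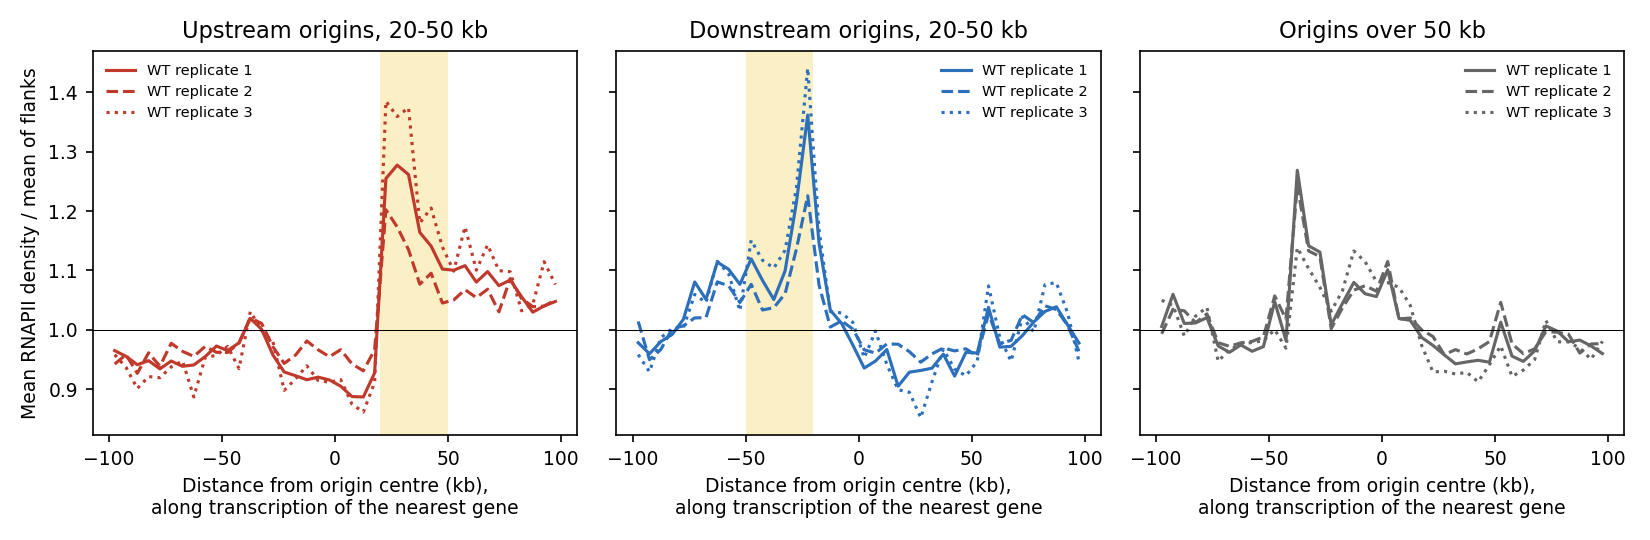
Mean RNAPII density in 5-kb steps, divided by the mean at 75 to 100 kb, against distance from the origin centre in kb along transcription of the nearest gene, with 1 line per WT replicate for upstream origins (n = 243), downstream origins (n = 112) and origins over 50 kb from a gene start (n = 327). The shaded band is where the listed gene starts lie, and the peak averages 1.28 at 20 to 25 kb for upstream and 1.34 at 25 to 20 kb before the centre for downstream origins.

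In the means over origins, RNAPII at the centre relative to the flanks was higher for origins in a gene. Downstream origins inside their nearest gene had a log2 ratio of centre to flank of 0.04, 0.05 and 0.17, against -0.11, -0.06 and -0.09 for those past the gene's end. The difference was 0.17 ± 0.08 (SD, n = 3), inside minus past the end. With every annotated gene counted and not the nearest alone, the 43 downstream origins in a gene exceeded the 69 intergenic ones by 0.25 ± 0.05. The 56 upstream origins in a gene exceeded the 187 intergenic ones by 0.15 ± 0.05. The medians of single origins lay closer, at -0.01 in a gene, against -0.06 for intergenic downstream origins, and at -0.09 in a gene, against -0.14 for intergenic upstream origins. Each of the 3 differences between mean ratios had the same sign in all 3 libraries. The median of the ratios of single origins gave a smaller difference of 0.03 for origins inside minus past the gene. The centre was above the flank at 39.3%, 42.9% and 50% of the 28 origins inside, in replicates 1, 2 and 3. Past the end it was so at 45.9%, 45.9% and 37.8% of 74, so these shares did not share 1 direction.

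The centre was lower here than in 2 of the 3 other distance classes compared. Origins 20 to 50 kb from a gene start, both sides together, differed from origins over 50 kb away by -0.20 ± 0.03 (log2 of centre to flank, SD, n = 3), and those over 50 kb away had 0.11 ± 0.01. Downstream origins differed from the 259 origins within 20 kb downstream by -0.15 ± 0.03. Upstream origins exceeded the 432 origins 10 to 20 kb upstream by 0.06 ± 0.02, since those had -0.16 ± 0.05. All listed origins together had 0.00 ± 0.02, with an exact permutation p of 1. With the median of the ratios of single origins, the last 2 differences were -0.05 and 0.02. Flanks of different classes hold different genes, and their part in these differences was not tested.

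**Figure D2:**
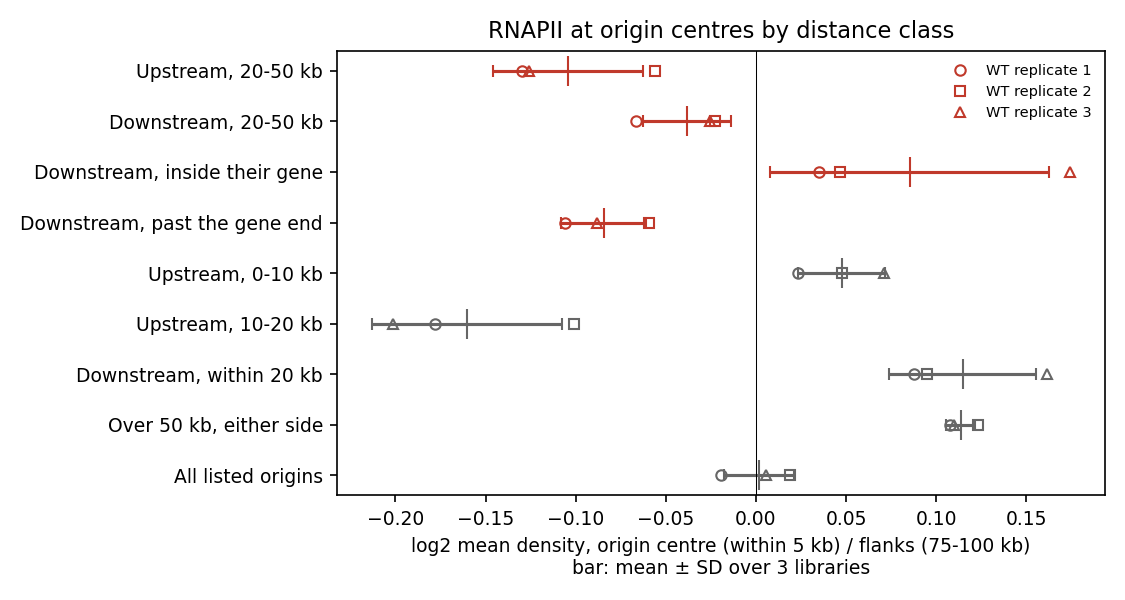
Log2 ratio of mean RNAPII density at the origin centre (within 5 kb) to the flanks (75 to 100 kb) for each distance class, with circles, squares and triangles for WT replicates 1, 2 and 3 and bars for the mean ± SD. Upstream origins at 20 to 50 kb average -0.10 and downstream origins -0.04, and origins over 50 kb from a gene average 0.11.

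Single origins mostly followed the flanks at their centre. The centre was at least 1.5-fold above the flank in all 3 libraries at 5 of 243 upstream and 3 of 112 downstream origins, against 2.84% of all listed origins. It was at least 1.5-fold below at 6 upstream and 3 downstream origins, against 2.35% of all listed origins. These shares, 2.06% and 2.68% above and 2.47% and 2.68% below, are near the background. Without the origins that had over 5% of bins at 0, the counts were 2 and 1 above and 2 and 1 below, so most of these calls lie where many bins are at 0. Without replicate 1 or without replicate 2, the centre was at least 1.5-fold below the flank in the remaining libraries at 11 upstream origins. Without replicate 2 it was so at 7 downstream origins. The share over all listed origins was not counted under these settings, so these counts are not read against a background.

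The gene start stood out more than the origin. Within 1 kb of the start nearest to upstream origins, mean density was 2.39, 1.25 and 2.11 in the 3 libraries, against 0.945, 0.592 and 0.702 at the mirror position, the same distance on the other side of the origin. The mean log2 ratio was 1.33 ± 0.26 (SD, n = 3), or 2.52-fold. The start was above its mirror at 200, 195 and 200 of 243 upstream origins. For downstream origins mean density was 2.01, 1.01 and 1.62 at the start, against 0.863, 0.585 and 0.572 at the mirror, a log2 ratio of 1.17 ± 0.36 or 2.25-fold. The median of the ratios of single downstream origins was lower, at 0.52. The start was above its mirror at 75, 73 and 80 of 112 downstream origins. Upstream minus downstream, the ratio differed by 0.17 ± 0.11, with the same sign in all 3 libraries.

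Counted by origin, the start was at least 1.5-fold above its mirror in all 3 libraries at 131 of 243 upstream origins (53.9%) and 41 of 112 downstream origins (36.6%), against 52.3% of the 1733 listed origins whose gene start could be read in the window. The upstream share is near the background and the downstream share is below it. The median log2 ratio per origin was 1.13 upstream and 0.50 downstream, beside 1.15 over all these origins. Downstream, 5 of 28 origins inside the gene were called higher, against 35 of 74 past its end. The start was at least 1.5-fold below its mirror at 5 upstream and 4 downstream origins (2.06% and 3.57%), against 1.44% of the listed origins. Among these origins, RNU2-1, GPAT2, KRT16P3, NBPF6 and FAM74A7 had over 5% of the window in bins at 0 in all 3 libraries. The shares of lower starts are therefore not read as a difference from the background. At the origins 10 to 20 kb upstream, the ratio was 1.48 ± 0.31, and upstream origins at 20 to 50 kb differed from it by -0.14 ± 0.05.

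**Figure D3:**
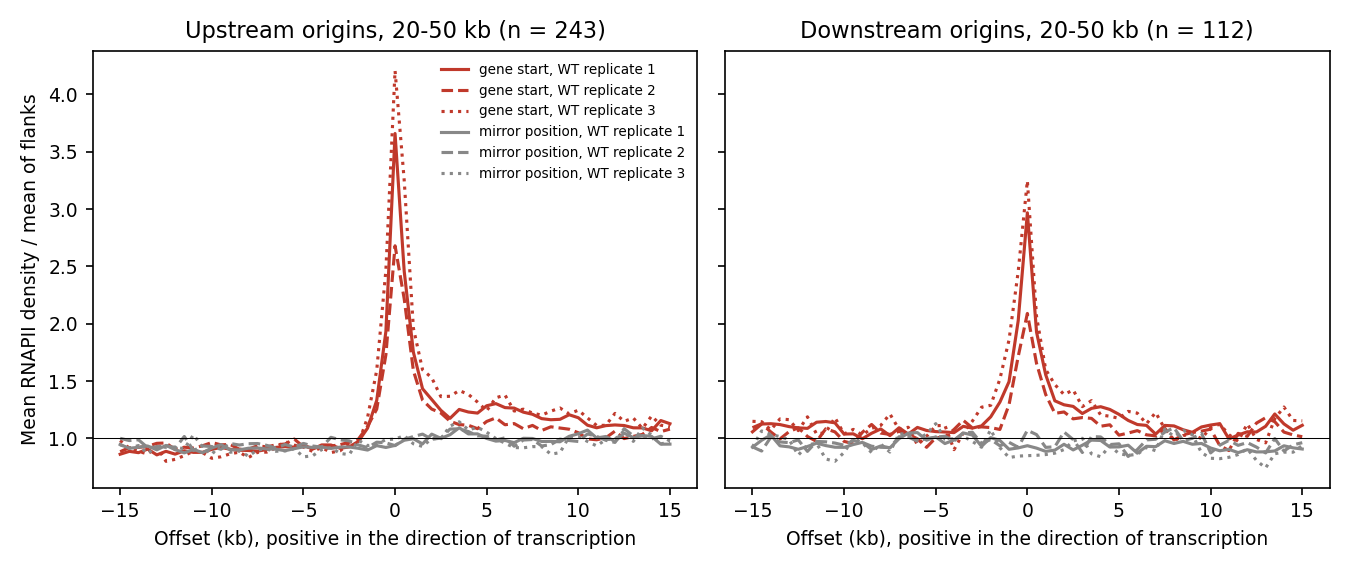
Mean RNAPII density in 500-bp windows, divided by the mean at 75 to 100 kb, against offset in kb from the gene start (red) and from the mirror position on the other side of the origin (grey), with 1 line per WT replicate. At the start the mean over libraries is 3.52 for upstream and 2.77 for downstream origins, against 0.957 and 0.952 at the mirror.

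The peak at gene starts beside upstream origins was narrow and leaned into the gene. Density relative to the flanks was 3.52 ± 0.77 at the start, 1.39 ± 0.18 at 1 kb before it and 1.77 ± 0.19 at 1 kb after it, and 1.22 ± 0.07 at 5 kb after it (SD, n = 3). The peak of downstream origins did not lean that way at 1 kb, with 1.55 before the start, 2.77 at the start and 1.51 after it. Further out it did, with 1.01 ± 0.09 at 4 kb before the start and 1.20 ± 0.09 at 4 kb after it. From 2 to 20 kb past the start in the direction of transcription, mean density for upstream origins was 1.16, 0.659 and 0.864 in the 3 libraries. The range was not cut at the gene's end, so at short genes it runs beyond the gene. At the mirror mean density was 0.989, 0.607 and 0.704, a log2 ratio of 0.21 ± 0.09. For downstream origins the same range had 1.04, 0.625 and 0.755, against 0.866, 0.568 and 0.613 at the mirror. The stretch between upstream origins and the start showed no such excess. From 5 kb past the centre to 5 kb before the start, the log2 ratio to its mirror was -0.04 ± 0.02 for upstream origins. For downstream origins, where this stretch is the gene or what follows it, the ratio was 0.18 ± 0.06, and it differed by where the origin lay. The 28 origins inside the gene had 0.925, 0.555 and 0.635 over this stretch, against 0.935, 0.608 and 0.717 at the mirror. The 74 past its end had 1.04, 0.631 and 0.775, against 0.848, 0.546 and 0.596. The mean over the stretch was thus below its mirror in all 3 libraries for origins inside the gene, and above it for those past the end. Single origins inside the gene were divided, with the stretch above its mirror at 13, 14 and 13 of the 28. Their medians were 0.863, 0.547 and 0.573, against 0.843, 0.544 and 0.587 at the mirror, so the medians did not share 1 direction.

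Over 5 to 50 kb the gene side was denser than the other side on average, except at downstream origins inside their gene. From 5 to 50 kb on the gene side of upstream origins mean density was 1.09, 0.650 and 0.814, against 0.946, 0.598 and 0.679 on the other side, a log2 ratio of 0.19 ± 0.07 (SD, n = 3). For downstream origins the ratio was 0.24 ± 0.08. Those inside their gene had 0.923, 0.579 and 0.638 on the gene side, against 0.932, 0.589 and 0.694 on the other side. Those past the gene's end had 1.1, 0.654 and 0.839, against 0.865, 0.556 and 0.603. Limited to 0 to 20 kb, which holds no listed start, the ratio turned to -0.03 for upstream origins and was 0.13 ± 0.05 for downstream origins. Single origins were at least 1.5-fold denser on the gene side at 16 upstream and 9 downstream origins, against 6.57% of all listed origins, and less dense at 5 and 3, against 2.4%. The 9 downstream origins denser on the gene side were all past the gene's end.

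Nascent transcription of the nearest gene went with RNAPII at its start. A deposited table gave bromouridine (BrU-seq) signal in WT gene bodies, a measure of RNA made during a labelling pulse, and classes were cut at the median of the whole table. Upstream origins whose gene was above that median (n = 40) had a log2 ratio of start to mirror of 1.70 ± 0.39, against 0.54 ± 0.13 for those at or below it (n = 29). The difference was 1.16 ± 0.27 (SD over 3 libraries). Downstream origins had 1.91 ± 0.51 above the median (n = 19), against -0.03 ± 0.15 at or below it (n = 20), a difference of 1.94 ± 0.41. Of origins above the median, 32 of 40 upstream and 15 of 19 downstream were called higher at the start, against 71.1% of all listed origins in that class. At or below it, 7 of 29 and 2 of 20 were, against 30.6%.

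Genes listed without a BrU value gave the low end. The 7 upstream ones had a log2 ratio of start to mirror of 0.00 ± 0.12 and the 11 downstream ones -0.71 ± 0.21, with 0 and 1 called higher and 0 and 3 called lower, against 1 higher and 4 lower of 61 such genes in all listed origins. The 3 lower were CLEC2L, NBPF6 and FAM74A7, and bins at 0 in all 3 libraries made up over 5% of the window at the last 2. The nearest gene was not in that table for 167 upstream and 62 downstream origins, so the BrU classes cover a minority. Among upstream origins the ratio was 1.5 ± 0.29 at 20 to 30 kb (n = 157), 1.1 ± 0.2 at 30 to 40 kb (n = 64) and 0.59 ± 0.23 at 40 to 50 kb (n = 22). In these 3 ranges 93, 33 and 5 were called higher (59.2%, 51.6% and 22.7%), beside 52.3% of the listed origins with a readable start. Downstream mean ratios were 1.21 ± 0.36 (n = 57), 0.98 ± 0.38 (n = 33) and 1.29 ± 0.35 (n = 22), without that order. The median per downstream origin was lower at greater distance, at 0.74, 0.49 and 0.38. There 25, 10 and 6 were called higher (43.9%, 30.3% and 27.3%), beside the same 52.3%. Upstream origins with a protein-coding gene exceeded those with a lncRNA by 0.27 ± 0.11, with medians per origin of 1.25 and 0.25. Of them 121 of 197 (61.4%) were called higher, against 5 of 21 (23.8%), beside 59.8% and 27% of all listed origins with such genes. Downstream the difference was -0.03 ± 0.11, with an exact permutation p of 0.75. The medians per origin there were 0.71 and 0.49, and 30 of 66 (45.5%) were called higher, against 10 of 28 (35.7%).

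**Figure D4:**
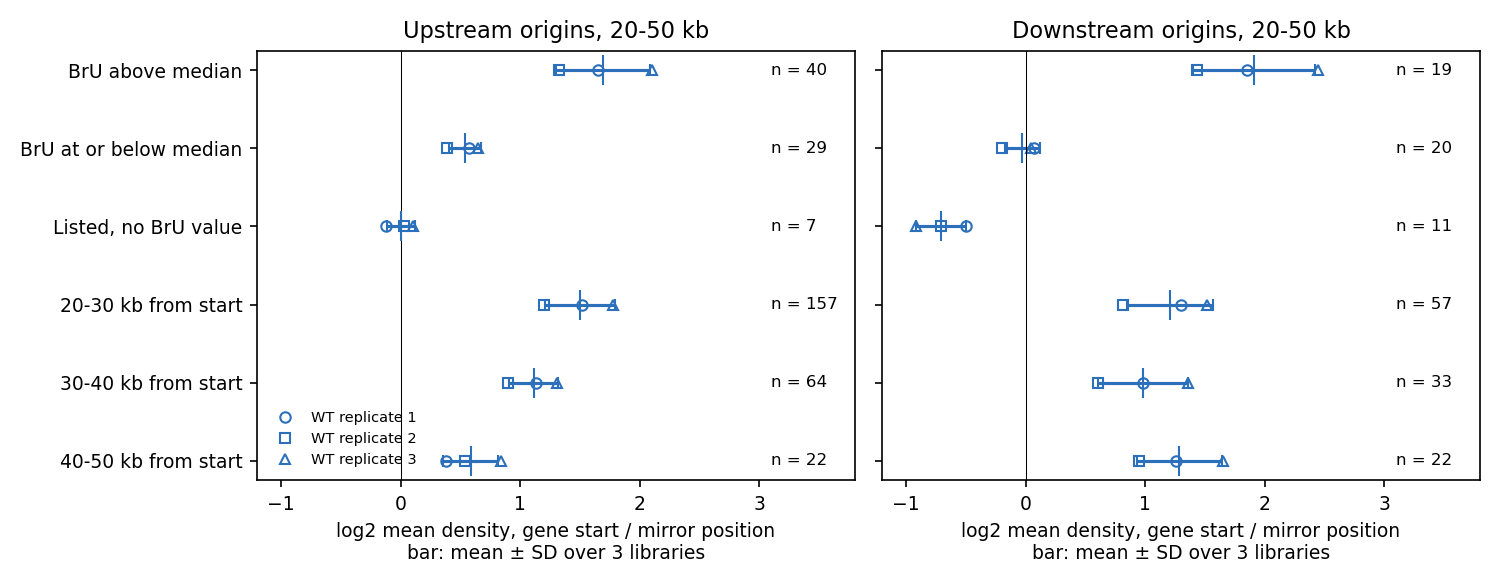
Log2 ratio of mean RNAPII density at the gene start to the mirror position for classes of nearest gene and of distance, with circles, squares and triangles for WT replicates 1, 2 and 3 and bars for the mean ± SD. Genes with BrU-seq signal above the median average 1.70 upstream (n = 40) and 1.91 downstream (n = 19), and those at or below it 0.54 and -0.03.

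Most nearest genes belonged to none of the families listed, which were drawn up by gene symbol. Of 8 upstream origins near solute carrier genes, which encode membrane transporters, 6 were called higher at the start, with a median log2 ratio of 1.28, beside 23 of 33 in all listed origins. Density at the start of SLC20A2, a phosphate transporter, was 5.87, 4.30 and 8.87 times the library median in replicates 1, 2 and 3, against 1.17, 1.19 and 1.73 at its mirror. SLCO1B3, a hepatic uptake transporter of organic anions, had 1.35, 1.03 and 1.07 at its start, against 1.33, 1.41 and 1.30 at its mirror. The start of SLC20A2 stood above its mirror in every library, and that of SLCO1B3 did not. Both are examples from the 8, outside the rule for named origins.

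Developmental regulators upstream were MEIS2, FOXP1 and FOXK1, which encode transcription factors, and all 3 were called higher, beside 9 of 14 in all listed origins. Density at the MEIS2 start was 6.45, 3.94 and 5.27 times the library median, against 0.814, 0.843 and 0.533 at its mirror. The FOXP1 start had 5.12, 3.19 and 7.63, against 0.981, 0.657 and 1.47. The only downstream one, FOXI1, was not called, with 0.829, 0.986 and 0.433 at its start, against 1.00, 0.871 and 0.833 at its mirror. Of the matrix and integrin group 1 of 4 upstream and 1 of 3 downstream genes were called, beside 8 of 19 in all listed origins, and the symbols of this group do not include FBN1. The upstream one was ITGAV, with 4.14, 3.70 and 6.07 at its start, against 1.23, 1.30 and 2.43. ITGAV encodes the integrin chain that pairs with the product of ITGB6. Of genes with symbols starting LINC or MIR, holding -AS, or made of a clone name, 3 of 20 upstream and 5 of 26 downstream were called higher. The share was 18.8% of all listed origins near such genes. Noncoding genes with other symbols, such as CRIM1-DT, were not counted here, so these numbers differ from those for annotated lncRNA genes. Symbols starting with ZNF were held by 0 upstream genes and 1 downstream, ZNF236-DT, a divergent transcript, and symbols starting with CDH or PCDH by 0 on either side. Zinc finger or cadherin genes with other symbols were not counted.

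Single loci show the range, with densities given as multiples of the library median in replicates 1, 2 and 3. The highest start was that of ACTB, the beta-actin gene, with 16.5, 15.2 and 27.0, against 0.757, 1.5 and 0.8 at the mirror. Its origin, 24.9 kb upstream, had 1.98, 1.73 and 2.21 at the centre, against 1.17, 1.1 and 1.40 in the flanks. This centre lies in an intron of a long annotated ACTB transcript. The origin thus had more RNAPII than its flanks in every library, by a log2 ratio of 0.64 ± 0.06, and far less than the gene start.

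MIR31HG, the host lncRNA of miR-31, had 9.47, 6.26 and 11.6 at its start, against 0.8, 0.929 and 1.33 at the mirror. The centre had 3.16, 1.99 and 4.05, and the flanks 3.33, 2.20 and 4.21, so the centre was high without standing above its surroundings. FBN1, which encodes fibrillin-1 of extracellular microfibrils, had 7.33, 4.47 and 9.60 at its start, against 0.990, 0.529 and 0.967. LIF-AS1, antisense to the cytokine gene LIF, had 8.34, 8.70 and 14 at its start, against 0.795, 0.657 and 1.27. ChIP reads carry no strand, so RNAPII on LIF-AS1 and on LIF cannot be told apart.

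The upstream origin near ITGB6 was the reverse case. ITGB6 encodes the integrin beta-6 chain, which takes part in activating latent TGF-beta. Its origin centre had 3.51, 2.94 and 5.73, against 1.73, 1.63 and 2.48 in the flanks, a log2 ratio of 0.99 ± 0.18. Its start had 1.83, 1.09 and 1.60, against 1.95, 1.66 and 1.93 at the mirror. The origin was thus denser than the gene start in all 3 libraries. The centre lies 26.7 kb from the start, in an intron of another annotated gene on hg38.

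Downstream, JUN, which encodes a subunit of the AP-1 transcription factor, had 10.7, 5.91 and 11.9 at its start, against 0.943, 0.900 and 1.73 at the mirror. Its origin 22.0 kb past the start had 1.41, 0.969 and 1.88 at the centre, against 1.18, 1.13 and 1.31 in the flanks. The centre was above the flanks in 2 of 3 libraries. LINC01833, a lncRNA, had 13.3, 9.37 and 16.6 at its start, against 0.967, 0.8 and 0.733, and CRIM1-DT, the divergent transcript of CRIM1, had 6.16, 4.40 and 6.70, against 0.995, 0.486 and 1.07. ChIP reads carry no strand, so at CRIM1-DT the RNAPII of the genes of a divergent pair cannot be told apart.

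At DNAJB12, a membrane-bound co-chaperone of the endoplasmic reticulum, both places were dense. The origin lies in an exon of DNAJB12 itself, 21.4 kb past its start and near the end of the 22320-bp gene. An annotated coding start lies 3364 bp from this origin centre, inside the window of 5 kb. The part of that start and of the gene end in the centre density was not tested. Its centre had 3.54, 3.23 and 5.64, against 1.60, 1.60 and 1.79 in the flanks, a log2 ratio of 1.22 ± 0.34. The start had 5.42, 3.33 and 6.30, against 1.69, 1.31 and 1.53 at the mirror. PNMA2, whose origin lies 49.9 kb past its start in an intron of the mitophagy receptor gene BNIP3L, had 1.63, 1.38 and 1.67 at the centre, against 1.49, 1.21 and 1.72 in the flanks. LINC02547 had the opposite order to DNAJB12, with 0.974, 0.930 and 0.608 at a centre inside the gene, against 1.70, 1.46 and 2.13 in the flanks.

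Low starts were seen at CLEC2L, a C-type lectin domain gene, with 0.738, 0.529 and 0.267, against 1.46, 1.99 and 1.73 at the mirror. MIR548AO and FLJ37201 were named for the density at their origin centre and not for a low start. The MIR548AO start had 3.68, 2.5 and 3.50, above its mirror in all 3 libraries, at 1.49, 1.77 and 3.27. The FLJ37201 start had 1.42, 0.914 and 1.47, below its mirror in all 3, at 1.5, 1.61 and 1.80. Neither of these passed 1.5-fold in all 3 libraries. The starts of RNU2-1, a U2 snRNA gene present in repeated copies, and of GPAT2 and SEC22B2 were listed at 0 in all 3 libraries, as were the mirrors of FRG1DP and FAHD2A. For these no fold is given.

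**Figure D5:**
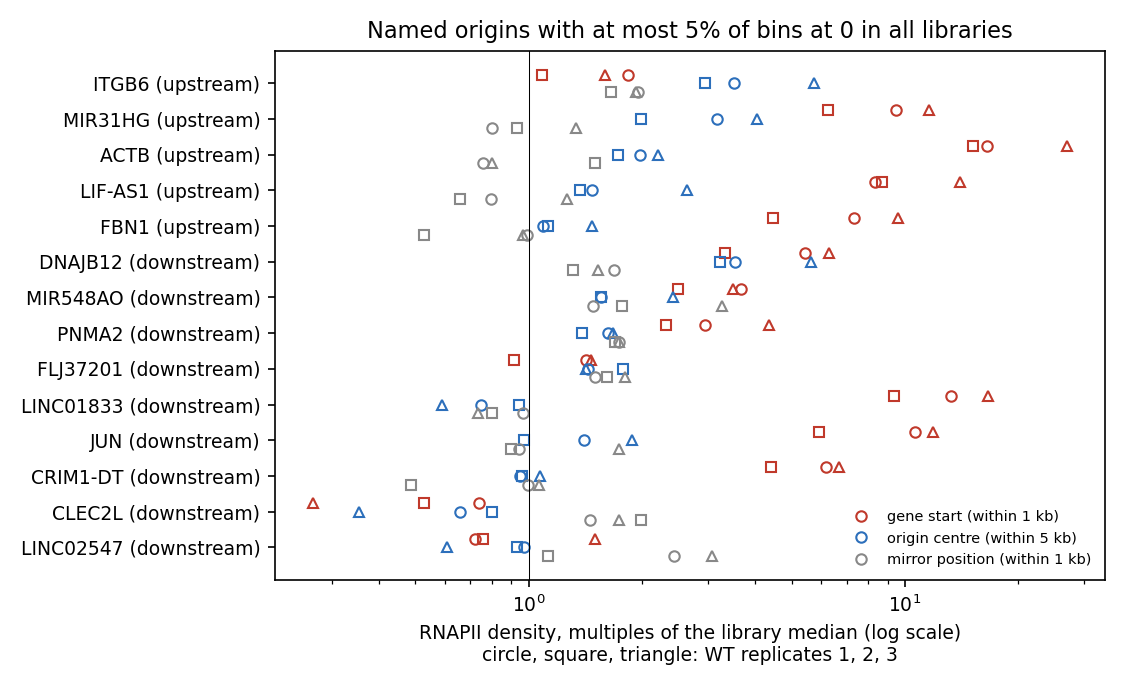
RNAPII density within 1 kb of the gene start (red), within 5 kb of the origin centre (blue) and within 1 kb of the mirror position (grey), in multiples of the library median on a log axis, for the named origins with at most 5% of bins at 0, with circles, squares and triangles for WT replicates 1, 2 and 3. ACTB has the highest starts, at 15.2 to 27.0, and at ITGB6 the centre lies above the start in all 3 libraries.

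Of the other origins called at their centre, BEND7 and LINC01629, both upstream and lower, had no bin at 0 in all 3 libraries. The origin near BEND7 had 0.570, 0.538 and 0.333 at the centre, against 0.932, 0.928 and 1.15 in the flanks. That near LINC01629 had 0.923, 0.964 and 1.06, against 1.58, 1.70 and 2.14. These 2 are named after their values were seen. The remaining called centres lay where many bins were at 0. Such bins made up 32.9% of the window at RNU2-1, 36.1% at NBPF20, 27.2% at GPRIN2, 26.2% at NBPF6, 52.7% at SEC22B2, 57.5% at LOC101929599, 64.8% at LINC01123, 23.9% at FAHD2A, 18.8% at HYDIN2, 11.5% at CFAP126 and 7.19% at MIR1324. The share was also 30.2% at FRG1DP, 29.6% at KLRB1, 9.69% at GPAT2, 9.29% at KRT16P3 and 6.29% at FAM74A7. Near-identical copies of the NBPF family exist in the genome, and where the authors' reads could be placed among them is not given in the sources used here. The origin near RNU2-1 had 2.97, 2.16 and 3.35 at the centre, against 0.867, 0.787 and 0.919 in the flanks, and that near GPRIN2 had 1.87, 1.80 and 2.24, against 0.262, 0.311 and 0.239. The centre was lower at SEC22B2, with 0.0635, 0.0532 and 0.0784, against 0.343, 0.394 and 0.538. Their part in the counts above is given by the values without them.

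The promoters of the nearest genes were also measured in both knockouts, with 1 library per genotype and so no replicate check. The values are spike-in normalised density from 200 bp before to 500 bp after the start, and the median promoter over 9787 TSSs held 3.86 steps of coverage in CFAP20/CCNC-dKO, 2.49 in CFAP20-KO and 9.15 in WT, so single promoters are imprecise. The labels name an RPB1 antibody of another supplier for both knockouts than for WT, so antibody and genotype cannot be told apart. By the labels, the WT antibody and the spike-in antibody have the same catalogue number, and chromatin and spike-in amounts were 22 µg and 32.6 ng for CFAP20/CCNC-dKO, against 28 µg and 40 ng for WT. No TSS named CFAP20 or CCNC was among those used, so the targets were not checked.

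Promoters were first limited to those whose mean over the 3 genotype libraries was above the median, which kept 59 upstream and 29 downstream nearest genes. That limit uses the knockout libraries, so a promoter low in WT could pass through its knockout value alone. Of the 29 downstream promoters kept, 6 were below the WT median of all TSSs, and these 6 were all those at least 1.5-fold higher in CFAP20/CCNC-dKO and 3 of the 4 higher in CFAP20-KO. Counts under that limit are therefore not read as a result. Over all 4893 promoters kept, 18.8% were higher and 16.6% lower in CFAP20/CCNC-dKO, and 15.7% and 16.6% in CFAP20-KO.

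With no limit on level, 75 upstream and 48 downstream nearest genes had values. In CFAP20/CCNC-dKO, 5 upstream promoters were at least 1.5-fold higher than in WT after centring and 20 were lower. Downstream 8 were higher and 8 lower, against 19.5% higher and 20.5% lower over all 9787 promoters. In CFAP20-KO, 4 upstream promoters were higher and 9 lower, and downstream 11 were higher and 16 lower, against 19.4% higher and 24.6% lower over all promoters. The median centred log2 ratio of upstream genes was -0.13 for CFAP20/CCNC-dKO and -0.02 for CFAP20-KO, and of downstream genes 0.01 and -0.04. The centre subtracted was -0.22 for CFAP20/CCNC-dKO and -0.03 for CFAP20-KO.

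Some examples, picked after their values were seen, show the range. The promoter of NFKBIA, which encodes the NF-kappaB inhibitor IkappaB-alpha, had a density of 1.91 in CFAP20/CCNC-dKO cells and 4.79 in CFAP20-KO cells, against 4.05 in WT. PIM1, a serine/threonine kinase gene, had 0.660 and 1.68, against 1.46 in WT. ATRNL1 had 0.501 and 1.73, against 1.74 in WT. In these the double knockout library was the lowest and the single knockout library was closer to WT. GPCPD1, a glycerophosphodiesterase gene, had 0.752 and 0.804, against 1.86 in WT. Of the loci above, ITGB6 had 0.972 and 0.730, against 0.804 in WT, and DNAJB12 had 2.32 and 3.6, against 3.17 in WT.

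As a check of the line, WT promoter density was 1.17 at TGFBI and 2.52 at LOX, the 2 of 5 RPE1 line genes that were listed, against a median of 0.407 over all TSSs. Of 8 genes of differentiated pigment epithelium, 4 were listed, at 0.391 to 0.744, with RPE65 at 0.416. Blood genes, 2 of 4 listed, had 0.264 and 0.312, liver genes, 2 of 3, had 0.359 and 0.461, and neuron genes, 2 of 5, had 0.326 and 1.05. None was at 0. The visual cycle gene RPE65, a defining gene of the differentiated tissue, was thus near the median of all promoters.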

How the data were processed

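RNAPII ChIP-seq was deposited as coverage signal in bins. The authors gave 200-bp bins within 100 kb of OK-seq origin centres for 3 WT samples and, per the file names, spike-in normalised 10-bp bins within 5 kb of TSSs for replicate 1 of each genotype. The deposited BrU-seq gene body value is a signal whose scale is not given in the sources used here, and neither is the normalisation of the origin signal. The submitters' processing notes name builds hg38 and BDGP6 and, in no stated order, BWA 0.7.17, STAR 2.7.7a, HOMER 4.8.2, SAMtools 1.11, FastQC 0.11.9, R 4.0.5 and Trim Galore 0.6.5. No counts were used, so depth is given only as steps of coverage. Another 2 columns of per-sample values were left out.

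Listed starts lay within 1 kb of a GENCODE 44 start of the same gene for 318 of the 355 origins (89.6%). Ratios are of mean densities over origins within a library. Single origins were called at 1.5-fold in all 3 libraries, with a pseudocount of 10% of the library median. Promoter ratios used a pseudocount of 0.041 and so understate changes of low genes, and promoter counts are given with and without a limit on mean level. Scripts ran in Python 3.11.15 with numpy 2.4.6, scipy 1.17.1, pandas 2.3.3, pysam 0.24.0 and matplotlib 3.10.9, and were tested on simulated data.

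Origins and lists were chosen with earlier results of these data known. Origins named by rule are, on each side, the 5 with the highest centre, the 5 highest and 3 lowest in start to mirror, and the 3 highest and 3 lowest in centre to flank. SLC20A2, SLCO1B3, MEIS2, FOXP1, FOXI1 and ITGAV fall outside that rule and are examples from their gene families. The printed sequences are a smaller set picked after the values were seen, since most origins in the last group lie where many bins are at 0. Settings varied were window widths, flank position, medians over origins, capped bins, neighbouring origins, annotated starts, thresholds, pseudocounts, the promoter range, centring, and leaving out each replicate.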

Additional observations from a re-analysis of the deposited data

How the results depend on the processing

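Across 13 ratios and 127 alternative settings, the direction was the same in 126. The exception was the gene side against the other side of upstream origins, which reversed to -0.0276 with a range of 0 to 20 kb, a range that holds no listed gene start, while downstream origins had 0.13 ± 0.05 there, against 0.24 over 5 to 50 kb. Over all settings the log2 ratio of start to mirror ran from 0.96 to 1.65 upstream and from 0.52 to 1.40 downstream, and the difference between downstream origins inside and past their gene from 0.03 to 0.24. Start calls ran from 92 at 2-fold to 147 without replicate 2 for upstream origins, and from 29 to 49 under the same settings for downstream origins. The setting chosen after seeing the data, without origins over 5% of bins at 0, left 126 and 38. Promoters above the median of all 3 genotypes numbered 59 upstream and 29 downstream, against 75 and 48 over all TSSs. Of those kept, on both sides, 5 were at least 1.5-fold higher in CFAP20-KO than in WT, against 8 not centred and 15 over all TSSs. Those lower numbered 16, against 25 over all TSSs. The shares over all promoters were 15.7% higher and 16.6% lower under the limit, and 19.4% and 24.6% without it. For CFAP20/CCNC-dKO, 10 were higher, against 6 not centred, beside 18.8% of all promoters kept. Shares without centring were not counted, and counts under the limit are not read as a result. The changes in count follow from adding TSSs or moving the zero point. No paired analysis was possible because the groups compared share only replicate number 1. Depth limits single origins in replicate 3, where the median bin held 3 steps of coverage, and single promoters in the knockouts.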
